A study of Bos taurus with 35 samples.

Results

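The genes described here are 59 of the 24596 bovine genes of the count tables that were well expressed in omental and subcutaneous fat and scarce in intramuscular fat. They were chosen from the values themselves. The median CPM (counts scaled to library size) had to be at least 5 in omental fat (O) and in subcutaneous fat (S), each of these had to be at least 4 times the median in intramuscular fat (I), and O and S had to lie less than 4-fold apart. The 31 genes of the study's qRT-PCR list were left out of the choice, and with them the same thresholds would have given 61 genes, the further ones being CD163 and ITGAM. No muscle (M) level was part of the thresholds, but the M libraries took part in the scaling, and with scaling over the fat libraries alone 57 genes were chosen, 54 of them members.

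The tissues came from 9 Hanwoo cattle, a Korean beef breed, slaughtered at an age of 30 months. Labels give 3 animals each as female, castrated male and male, whereas the study's text calls the animals steers. S, I and M were taken at the rib and O at the abomasum, and the animals had been fed together. There were 9 O, 9 S, 8 I and 8 M libraries of poly(A) RNA. A number after the letter stands for the animal according to the labels (O3 is the O library of animal 3). No treatment or transgene distinguished any group. I and M libraries were dissected tissue with all of its cells, so a lower value in bulk RNA cannot tell apart fewer cells of a type and less RNA per cell.

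Adipose tissue holds lipid-filled adipocytes among vessels, fibroblasts and immune cells, chiefly macrophages, and the depots are known to differ in all of these. Fat inside the muscle lies between muscle fibres and is the depot that gives marbling. CD163, a scavenger receptor for haptoglobin and haemoglobin on tissue macrophages, and ITGAM, the alpha chain of the integrin Mac-1 of myeloid cells, served here as reference genes for myeloid cells. FASN, which synthesises palmitate, and DGAT2, which adds the last fatty acid to triacylglycerol, served as reference genes for lipid synthesis. The tables identify genes by Ensembl gene number and do not pair the numbers with names, so the members are given by number and their functions are not stated.

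Counts on genes were 3726376 to 7184022 per library, and 5 CPM stood for 23.5 to 42.3 counts in the fat libraries and at most 17.7 in M. The label of muscle replicate 4 went against its data. A set of 6 genes, chosen because they had at most 1 count in every fat library of the females and at least 5 in every other fat library, summed to 0 to 3 counts in the fat of females and to 706 to 1027 in the fat of the other animals. They summed to 1 count in M1 but to 599 in M4, both labelled female, and to 428 to 903 in the other M libraries. The library labelled M4 is therefore included below and also left out where M is compared. TPM2, a tropomyosin of muscle fibres, had a median in I of 4.77% of its median in M.

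The members covered a wide range of levels. Their medians ran from 5.33 to 1003 CPM in O, with a median over members of 21.8, and from 5.19 to 1500.0 CPM in S, with a median of 19.4. In I they ran from 0.320 to 236.9 CPM, with a median of 3.08. The other 10669 genes at 5 CPM or more in O and S had medians of 29.98, 30.1 and 30.2 CPM in O, S and I, so the members lay somewhat below them in O and S. The median ratio of the lower of O and S to I was 4.68, close to the threshold of 4. Of the members, 38 were higher in O than in S (64.4%, against 46.7% of the other genes).

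**Figure D1:**
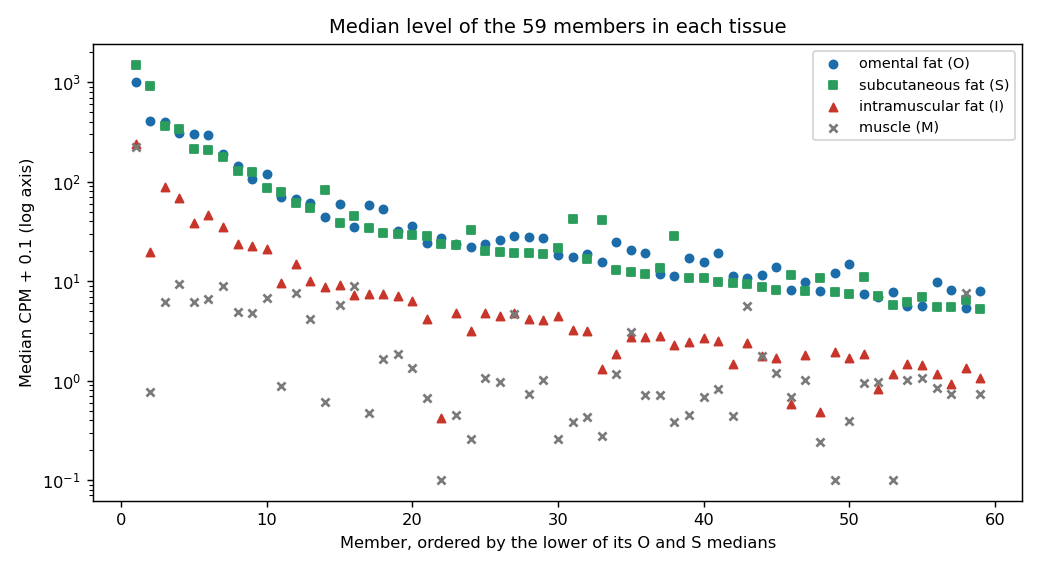
Median CPM + 0.1 (log axis) of each of the 59 members in O (circles), S (squares), I (triangles) and M (crosses), ordered by the lower of the O and S medians. The I medians lie below both fat depots for every member, as the choice required, and most M medians lie lower still, with 7 members above their I median.

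The threshold cut through a continuous range. Just inside it, ENSBTAG00000019670 had a ratio of 4.03 with medians of 19.1, 9.73 and 2.42 CPM in O, S and I. Just outside it stood FASN, with a ratio of 3.98 and medians of 2388, 4175 and 599.3 CPM. A further 98 genes had ratios between 3 and 4, and 378 between 2 and 3.

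Since the choice used these contrasts, the following is a description. The edgeR quasi-likelihood test called 58 of 59 members lower in I than in O at an adjusted p under 0.01, where it called 15.5% of all genes tested lower. It likewise called 58 lower in I than in S, where the share of all genes was 15.2%. Every I library was below every O and every S library in 29 members (2.14% of all genes), and in the other 30 the ranges of single libraries met. Without scaling factors the same thresholds chose 95 genes, among them all 59 members. Leaving out 1 animal at a time gave 45 to 79 genes, and 30 of the 59 members were chosen each time.

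ENSBTAG00000011917 was the most abundant member. It ran from 493.2 to 1744 CPM in O, with a median of 1003, and from 274.6 to 1811 in S, with a median of 1500.0. In I it ran from 60.1 to 627.1 with a median of 236.9, and in M from 153.1 to 834.2 with a median of 222.7. The I and O ranges overlapped, with I1 at 627.1 CPM above O8, and S3 was the low library of S. Its difference between M and I was 0.10 on the log2 scale (SE 0.43, adjusted p = 0.844, edgeR), and this sign turned to -0.31 without replicate 5, to -0.20 without replicate 8 and to -0.68 without scaling factors.

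ENSBTAG00000007273 had the clearest separation of tissues among the abundant members. Its lowest, median and highest values were 222.2, 408.1 and 1454 CPM in O and 161.4, 926.3 and 1976 CPM in S. In I they were 4.22, 19.6 and 50.7 CPM, and in M 0.284, 0.671 and 2.92 CPM, or 1 to 10 counts. None of the I libraries reached any O or S library, and none of the M libraries reached any I library. The ratio of O to I was 20.9, and M was lower than I by 4.85 on the log2 scale (SE 0.56, adjusted p = 2.46e-07, edgeR).

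Muscle was the tissue in which the members were scarcest, so their low level was not confined to I. The median over members was 0.862 CPM in M, against 3.08 in I and 29.7 CPM in M for the other genes. M had the higher median than I in 7 of 59 members (11.9%), against 48.2% of the other genes, and M lay under 1 CPM in 36 members. At least 1 M library had 0 counts in 30 members, and 1 member had 0 counts in all M libraries. The label of genes low in I alone thus holds among the fat depots, and for 52 members I stood at or above M.

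In the test of M against I, which rests on M values that the choice did not use and on I values that it did, 31 members passed the count filter and 28 did not. Of the 31, 22 were lower in M (29.8% of all genes tested were lower), 2 were higher (30% of all genes) and 7 were not called. Members scarce in M could pass the filter only through I, where they were higher. The filter thus favoured lower calls among the 31, and these counts are a description.  Without the filter all 59 could be tested, and 34 were lower (23.5% of all genes), 2 were higher (20.7%) and 23 were not called, with a median of -1.97 against -0.26 for all genes. With the filter but without muscle replicate 4, 35 members were tested, of which 26 were lower and 2 higher. Every M library was below every I library in 20 of the 59 members. Of these, 15 were among the 31 that passed the filter, a count that the filter favours too. Among all genes that passed it, 13.7% did so.

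**Figure D2:**
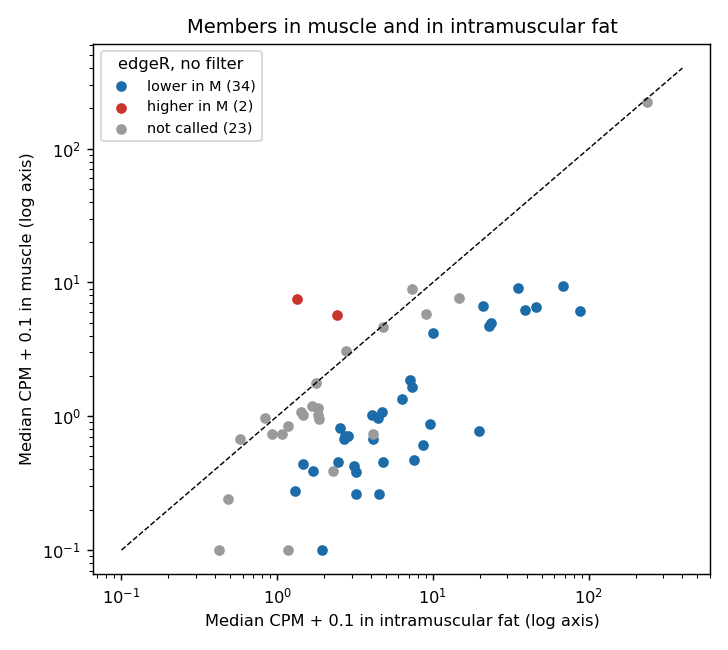
Median CPM + 0.1 of the 59 members in I (horizontal, log axis) and M (vertical, log axis), coloured by the edgeR call at an adjusted p under 0.01 with no count filter; the dashed line marks equal medians. The 34 members called lower in M lie under the line, the 2 called higher lie over it and 23 were not called.

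The 2 members that were higher in M than in I were both of low level. ENSBTAG00000007031 ran from 5.96 to 11.7 CPM in M with a median of 7.46, and from 1.05 to 3.93 in I with a median of 1.25. All M libraries lay above all I libraries, and the log2 difference was 2.22 (SE 0.30, adjusted p = 2.42e-06, edgeR). It was the one member with a higher median in M than in O or S, at 5.33 and 6.43 CPM, but these differences of 0.66 and 0.46 on the log2 scale had adjusted p-values of 0.0234 and 0.0531 (edgeR), above the threshold of 0.01.

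ENSBTAG00000009642 ran from 1.44 to 11.1 CPM in M with a median of 5.58, and from 1.4998 to 3.21 in I with a median of 2.31. Its ranges overlapped through M8 alone, the lowest M library. The log2 difference was 1.40 (SE 0.31, adjusted p = 0.000537, edgeR), and without scaling factors it was 0.58 and not called.

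Against the other depots, M was lower for almost every member. The choice used the O and S values, and most members passed the count filter through these depots, where they were chosen to be high, so the counts that follow are a description and nothing is read from them beside the shares of all genes. The test of M against O called 56 of the 58 members that passed the filter lower (33.5% of all genes were lower) and 0 higher (29.9%), and 58 had an unadjusted p under 0.05. The test of M against S called 57 of 59 lower (32.2%) and 0 higher (30.5%), and 59 had an unadjusted p under 0.05. The median log2 differences were -4.65 and -4.17. DESeq2 also called 0 members higher in M in both, and without muscle replicate 4 the test called 57 lower in each. The members not called in both were ENSBTAG00000007031 and ENSBTAG00000009642. The 2 comparisons and that with I share the M libraries.

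The mean log2 CPM over the 59 members put the tissues in the order O, S, I and M. It was 4.81 ± 0.35 in O (SD, n = 9, range 4.32 to 5.23) and 4.64 ± 0.25 in S (n = 9, range 4.14 to 4.97). It was 2.28 ± 0.39 in I (n = 8, range 1.73 to 2.78) and 0.75 ± 0.34 in M (n = 8, range 0.29 to 1.22). The O and S ranges overlapped, and those of I and M met neither each other nor those of O and S. The choice of members favoured the nearness of O and S and their distance from I, so these are a description. A prior count of 2 entered these log2 values, which raises the lowest levels and so shortens the distance to M.

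The next question was whether the members followed the myeloid or the lipid genes from animal to animal within a depot. The reference genes varied widely. CD163 ran from 294.5 to 959.8 CPM in O, from 218.6 to 1106 in S and from 57.8 to 190.1 in I, and FASN from 1155 to 5090 in O, from 1062 to 8344 in S and from 216.8 to 1469.6 in I. CD163 and FASN ran against each other in O (r = -0.75, n = 9) and S (r = -0.52, n = 9) and had r = 0.11 in I (n = 8). All correlations here are of log2 CPM across the libraries of 1 depot, are given as descriptions, and join values that share a library and its scaling factor.

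In O the members went with the myeloid genes and against the lipid genes. Their median r was 0.31 with CD163 and 0.46 with ITGAM, and -0.46 with FASN and -0.48 with DGAT2. In S the same signs were weaker, at 0.10, 0.22, -0.24 and -0.28. In I all 4 medians were positive, at 0.14 with CD163, 0.49 with ITGAM, 0.30 with FASN and 0.43 with DGAT2. The other genes had medians between -0.09 and 0.09 in these depots. Without animal 3 the medians in S with FASN and DGAT2 were -0.02 and -0.10, and without animal 4 the median in I with CD163 was -0.03.

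These medians covered members of opposite behaviour. Each member was placed by its mean r with CD163 and ITGAM and its mean r with FASN and DGAT2 over the 18 O and S libraries, centred within each depot. By the larger of these, 42 members stood nearer to CD163 and ITGAM and 17 nearer to FASN and DGAT2. In 38 members the myeloid mean was positive and the lipid mean was not, in 16 the reverse held, and 5 had the same sign in both. The rule puts every gene on a side, and the pairs ran against each other in O and S, which favours opposite signs. The other genes were not placed, so these counts are a description. Over these libraries r with CD163 was positive in 59.3% of members and 46.6% of the other genes, and with ITGAM in 74.6% and 44.8%. With FASN these shares were 32.2% and 55.6%, and with DGAT2 25.4% and 53.4%. This placing was made after the data were seen, and 53 of the 59 members stood on the same side under every setting tried.

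**Figure D3:**
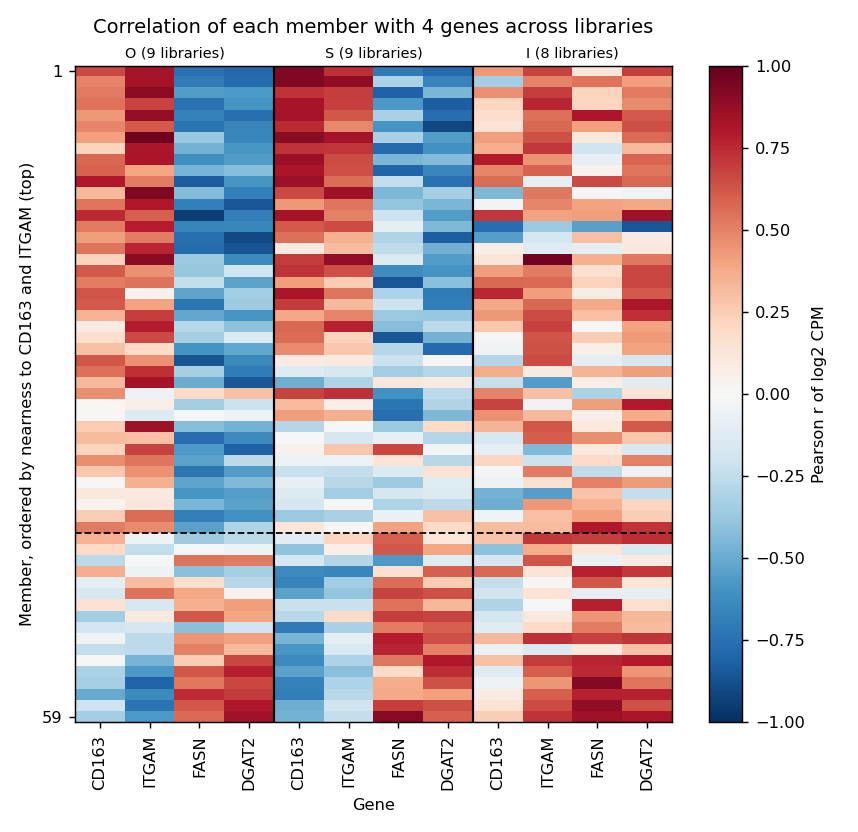
Pearson r of log2 CPM of each of the 59 members (rows) with CD163, ITGAM, FASN and DGAT2 in the 9 O, 9 S and 8 I libraries (column blocks), from -1 (blue) to 1 (red); the dashed line parts the 42 members nearer to CD163 and ITGAM from the 17 nearer to FASN and DGAT2. In O and S the upper rows run red to blue and the lower rows blue to red, an order that the placing used, whereas in I most rows are red for ITGAM, FASN and DGAT2 on both sides.

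I libraries had no part in the placing. There the 42 CD163-near members had a median r of 0.21 with CD163, 0.50 with ITGAM, 0.22 with FASN and 0.43 with DGAT2. The 17 FASN-near members had medians of -0.06, 0.44, 0.69 and 0.44. The medians with FASN were thus farther apart than those with ITGAM and DGAT2, a difference that was not tested. Pairs of members across the sides had a median r of -0.17 in O and -0.29 in S, which the placing favours, and of 0.24 in I.

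The mean log2 CPM of the 42 CD163-near members was 4.88 ± 0.57 in O, 4.63 ± 0.43 in S, 2.35 ± 0.36 in I and 0.63 ± 0.43 in M. In O it lay between 4.04 and 5.596, lowest in O7 and O1 and highest in O3, and in S between 3.83 in S4 and 5.23 in S3. The placing used the O and S libraries and fixed the signs of the relations there, so these values are a description of it. Across O libraries it had r = 0.51 with CD163 (rho 0.43), 0.77 with ITGAM (rho 0.70), -0.82 with FASN (rho -0.82) and -0.80 with DGAT2 (rho -0.82). Leaving out, for each of these 4 genes, the 2 O libraries farthest from that gene's median gave 0.60, 0.36, -0.83 and -0.68. In S the 4 values were 0.61, 0.44, -0.63 and -0.63, and in I they were 0.28, 0.72, 0.39 and 0.71. Without the 2 I libraries farthest from the median of ITGAM, r with ITGAM in I was 0.21.

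The mean of the 17 FASN-near members was 4.64 ± 0.34 in O, 4.66 ± 0.47 in S, 2.11 ± 0.60 in I and 1.03 ± 0.21 in M. In S one library stood apart, S3 at 3.48, where the other S libraries had 4.54 to 5.12. In O and S, where the placing had used it, the mean had r = 0.71 (rho 0.68) and 0.83 (rho 0.68) with FASN. In I, which the placing had not used, r was 0.91 (rho 0.90). Without the 2 libraries of each depot farthest from its median of FASN, r was 0.64 in O, 0.55 in S and 0.78 in I. With DGAT2 r was 0.65 in O, 0.81 in S and 0.72 in I. Without the 2 libraries farthest from the median of DGAT2 it was 0.68, 0.22 and 0.06. The relation with DGAT2 in S and I thus rested largely on the libraries with its most extreme levels.

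The scaling factor of the library moved with these means. In O it had r = 0.90 with the mean of the CD163-near members and -0.77 with that of the FASN-near members, and in S r = 0.84 with the latter. Its part in the relations was not tested. Without any scaling factors, r of the mean of the CD163-near members with FASN was -0.78 in O, -0.56 in S and 0.43 in I. With the factors these were -0.82, -0.63 and 0.39. For the FASN-near members the values without factors were 0.65 in O, 0.85 in S and 0.91 in I, where the factors gave 0.71, 0.83 and 0.91. The TPM2 level had r = -0.69 with the mean of the CD163-near members in O and -0.18 in I, and its part was not tested.

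**Figure D4:**
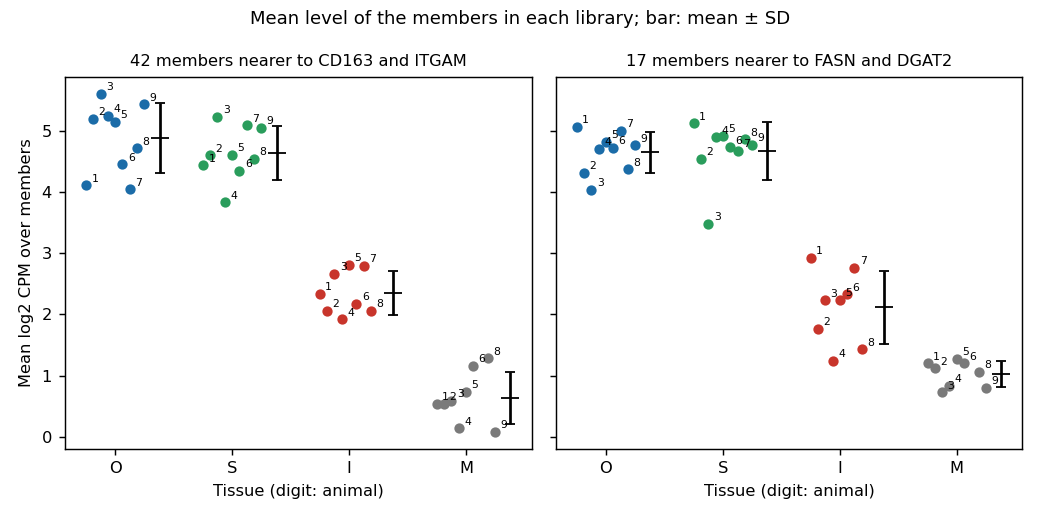
Mean log2 CPM over the 42 CD163-near members (left) and the 17 FASN-near members (right) in each library of O, S, I and M, with the animal's number beside each point and the mean ± SD of the group at its right. O and S lie above I with no overlap for either set, which the choice of members favoured. I and M overlap by 1 animal on the right (I4 and M5). S3, at 3.48, lies under the other S libraries for the FASN-near members and at the top of S, at 5.23, for the CD163-near members.

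A few members picked for their r with CD163 or FASN in O and S illustrate the placing. ENSBTAG00000030845, a CD163-near member, ran from 136.1 to 442.9 CPM in O with a median of 303.8, from 112.2 to 557.3 in S with a median of 214.3, and from 27.9 to 84.2 in I with a median of 38.8. In S it was lowest in S1 and highest in S3, as was CD163, and all I libraries lay below all O and S libraries. Its r with CD163 was 0.66 in O, 0.92 in S and 0.43 in I. In M it ran from 1.73 to 10.6 CPM with a median of 6.09, below every I library, and was lower than in I by 3.10 on the log2 scale (SE 0.34, adjusted p = 1.22e-07, edgeR).

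Among the FASN-near members, ENSBTAG00000011917 had r = 0.57 with FASN in O, 0.91 in S and 0.84 in I, and its low S library, S3, was also the lowest for FASN. With DGAT2 its r was 0.84, 0.60 and 0.81. ENSBTAG00000007273 went with DGAT2 in O (r = 0.78) and S (r = 0.74) and with FASN in I (r = 0.75), but its r with FASN in S was 0.19.

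The spread between animals was wider for the members than for most other genes, as a description without a test. The members were chosen on medians of these same O, S and I libraries, which can favour genes of wide spread. The part of that choice in the values for O, S and I was not tested. The median SD of log2 CPM over the members was 0.61 in O, 0.68 in S, 0.80 in I and 0.76 in M, against 0.30, 0.32, 0.39 and 0.44 for the other genes at 5 CPM or more in O and S. All 59 members were above the median of the other genes in O, 57 in S, 54 in I and 57 in M. Above their 95th percentile lay 23 members in O, 24 in S, 19 in I and 15 in M. The members had lower levels than those genes in I and M, where counting error adds to the spread, and its part was not tested. In O and S, where the medians over members were 21.8 and 19.4 CPM, levels were closer to those of the other genes.

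The animal as a whole showed in part of the members. Between O and S of the same 9 animals, members had a median r of 0.31, positive in 50 of 59, where the other genes had a median of 0.56. The mean of the FASN-near members had r = 0.76 between O and S, while that of the CD163-near members had r = 0.13. Between S and I of 8 animals, members had a median r of 0.34 and the other genes 0.06. There the mean of the CD163-near members had r = 0.75, and that of the FASN-near members r = -0.003. Between O and I of 8 animals, the medians were 0.19 for members and 0.23 for the other genes. The mean of the CD163-near members had r = -0.09 there, and that of the FASN-near members r = 0.53.

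ENSBTAG00000048135 had the largest spread by the mean SD of log2 CPM over O and S. Its lowest, median and highest values were 1.52, 26.9 and 785.2 CPM in O and 1.89, 23.5 and 239.1 CPM in S. In I they were 0, 0.320 and 5.999 CPM, and in M 0, 0 and 0.566 CPM. O3 and O2 were the high libraries of O and O7 the low one, whereas in S the high libraries were S1 and S7 and the low one S4, so that the same animals did not stand out (r between O and S of -0.08). The median in I was below the 0.491 CPM that 3 counts stand for, which makes its ratio of O or S to I uncertain.

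ENSBTAG00000003408, next by that measure, followed it from library to library in O (r = 0.88) and S (r = 0.76). In I r was 0.62, but there ENSBTAG00000048135 had 0 to 2 counts in every library except I7, with 40, so this value rests on I7. ENSBTAG00000003408 ran from 0.303 to 127.8 CPM in O with a median of 11.2 and from 0.473 to 65.4 in S with a median of 28.1. In I it ran from 0.159 to 3.5995 with a median of 2.19, and in M from 0 to 3.24 with a median of 0.286. In O the females had 0.303 to 3.01, the castrated males 7.82 to 24.1 and the males 25.03 to 127.8 CPM, without overlap. In S the females had 0.473, 58.9 and 65.4 CPM and so lay at both ends of the range.

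ENSBTAG00000002786 showed the opposite pattern, with the same animals low in every depot. Its values ran from 0 to 24.1 CPM in O with a median of 7.96, from 0.152 to 19.0 in S with a median of 5.39, from 0 to 6.11 in I with a median of 0.823 and from 0 to 3.20 in M with a median of 0.640. Animals 3 and 7 had at most 0.394 CPM in every fat depot and animal 3 had 0 in M, while the other O libraries had at least 5.41 CPM. Its r was 0.95 between O and S, 0.84 between O and I and 0.88 between S and I.

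**Figure D5:**
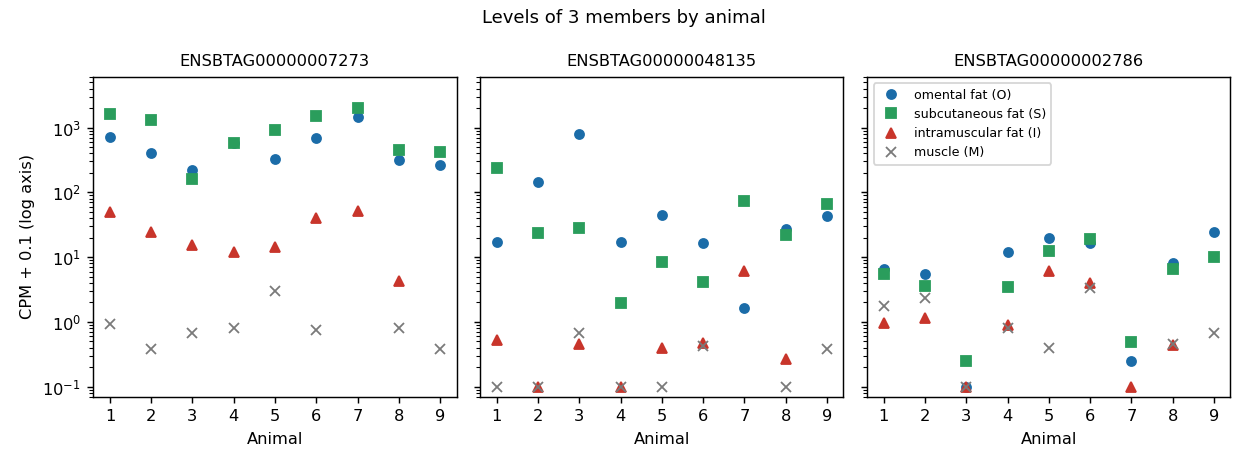
CPM + 0.1 (log axis) of 3 members in O (circles), S (squares), I (triangles) and M (crosses) of animals 1 to 9. ENSBTAG00000007273 has I between M and the other fat depots in the 7 animals with libraries of all 4 tissues, ENSBTAG00000048135 peaks in O3 at 785.2 CPM and in S1 at 239.1 CPM, and ENSBTAG00000002786 is near 0 in the fat of animals 3 and 7.

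The quasi-likelihood test of edgeR called 0 of 59 members between the 3 labels in O (0.0372% of all genes were called), 0 of 59 in S (0.0377%) and 0 of 54 in I (0.0146%). At an unadjusted p under 0.05 there were 11 in O (3.88% of all genes), 10 in S (7.76%) and 3 in I (4.08%). The lowest adjusted p-values were 0.352, 0.618 and 0.981. The lowest in O was that of ENSBTAG00000003408, which DESeq2 and the likelihood ratio test of edgeR each called in O, as 1 of 59 members, and with neither tool was any member called in S or I.

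Of 394 genes in lists of fat, immune, vascular and matrix genes drawn up for comparison, 7 could be identified in the tables, all of them from the qRT-PCR genes that the study had chosen on these samples. The study had picked CCL2 as higher in I, MMP9 as higher in O and the others as lower in I. Their directions in I against O were thus fixed by that choice, and the counts are a description. In I against O, 6 of the 7 were lower (15.5% of all genes) and 1 was higher (17.3%). CD163 was lower by 2.46 on the log2 scale (SE 0.25, adjusted p = 2.61e-07, edgeR), with 111.4 ± 45.4 CPM in I and 622.1 ± 180.6 in O (SD, n = 8 and 9). ITGAM, with 12.4 ± 5.15 and 121.9 ± 60.9 CPM, FASN, DGAT2, the chemokine receptor CCR2 and the matrix protease MMP9 were lower too. CCL2, the monocyte chemokine that binds CCR2, was higher, with 601.4 ± 230.5 CPM in I and 48.6 ± 32.3 in O (log2 difference 3.65, SE 0.36, adjusted p = 1.54e-07, edgeR).

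In I against S, where 15.2% of all genes were lower and 17.5% higher, CD163, ITGAM, FASN and DGAT2 were lower and CCL2 higher, and MMP9, with 4.46 ± 5.86 and 7.18 ± 7.42 CPM, was not called (adjusted p = 0.502, edgeR). CCR2, with 0.472 ± 0.623 CPM in I and 2.66 ± 1.29 in S, did not pass the count filter there, and without it was lower (adjusted p = 0.00167, edgeR). The reference genes showed the level pattern of the members. The study had picked them as lower in I than in O and S, so this followed from that choice. CD163 and ITGAM lay within the thresholds and FASN and DGAT2 just outside. In M they had 16.2 ± 10.4, 1.56 ± 1.02, 73.3 ± 25.3 and 66.4 ± 62.7 CPM (SD, n = 8), each lower than in I in the same test.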

How the data were processed

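Raw counts per Ensembl gene of 34 libraries were deposited by the authors, who mapped paired-end reads to bosTau6 with TopHat2 2.0.2 and counted them with HTSeq 0.5.3p3 after FastQC. The strand setting and annotation release are not given in the sources used here, so overlapping genes, antisense genes and near-identical copies are uncertain. The 5 lines that name no gene, 63.3% to 71.1% of all lines' counts, were left out. Animal 9 has no I library and animal 7 no M library among those analysed. RNA kits differ between the labels and the study's text.

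CPM were scaled by TMM over all 34 libraries, and log2 CPM used a prior count of 2. Tests used the quasi-likelihood test of edgeR 4.0.16 (R 4.3.3) with filterByExpr (count minimum 10) and an adjusted p (Benjamini-Hochberg over all genes) under 0.01. Standard errors are the log2 difference divided by the root of F. Scripts were tested on simulated data. Alternatives were the likelihood ratio test, DESeq2 1.42.0, RLE factors, no scaling, no filter, the animal as a block, each animal left out, and other thresholds for membership. The members and lists were chosen with earlier results of these data known. Members named are those highest or lowest in level, ratio to I, ratio of M to I, spread, and r with CD163 or FASN, and those nearest the threshold, of which a part is printed. None of the members, and 7 of 394 list genes, could be named, and promoter sequence was not analysed here.

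Replicate numbers are animal numbers in the labels, so libraries of a number come from 1 animal. Their deviations from the group means had median correlations of 0.26 (M and I), 0.14 (M and O), 0.03 (M and S), 0.10 (I and O) and 0.21 (I and S). No 2 libraries of a tissue agreed within sampling noise (lowest chi-square per degree of freedom 12.7 over 128 pairs).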

Additional observations from a re-analysis of the deposited data

Results flagged for a closer look

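In 5 results 1 library was far from the rest of its group, among 68 groups looked at, of which chance flags about 1 in 20. On the log2 CPM scale, the mean of the 17 FASN-near members was 3.48 in S replicate 3, where the other S libraries had 4.54 to 5.12. DGAT2 was 10.6 in the same library, against 11.5 to 12.1 in the others. In M replicate 5, ENSBTAG00000011917 was 9.70 against 7.26 to 8.11, and ENSBTAG00000007273 was 1.71 against -0.65 to 0.25. ENSBTAG00000048135 was 2.67 in I replicate 7 against -1.49 to -0.36 in the other I libraries.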

How the results depend on the processing

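Of the counts and medians recomputed under alternatives, 394 values stayed within 1.5 times (counts) or within the leave-one-out error (medians), and 11 moved. That error was computed from the same leave-one-out medians that it judged, so these could hardly exceed it. For them the label of unmoved says nothing about stability. In M against I, DESeq2 called 36 members lower, and the fit without the filter 34, where the main fit called 22. Both test members that the filter removes. Without scaling factors 1 member was higher in M than in I. In the sex comparison in O, the likelihood ratio test and DESeq2 each called 1 member. The choice of members gave 95 genes without scaling factors, 155 at 3 times I, 11 at 6 times I and 142 at 1 CPM. Spearman's correlation gave a median of 0.13 with ITGAM in S. The median SD in M was 0.66 without scaling factors. Without scaling factors the median log2 difference of all genes was -0.79 for M against I, and the difference for ENSBTAG00000011917 was -0.68, for ENSBTAG00000009642 0.58. The cause of these moves was not tested. Leaving out 1 animal at a time, the difference for ENSBTAG00000011917 ran from -0.31 without replicate 5, and -0.20 without replicate 8, to 0.40 without replicate 1. RLE factors kept 54 members and the mean in place of the median shared 37 of its 46 genes with the members.

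With the animal as a block (replicate block), 21 members were lower in M than in I, 56 lower than in O and 54 lower than in S. Of the list genes, 6 and 4 were lower in I than in O and S, and the block moved no count by over 1.5 times. In the M comparisons the block joined M4 to the fat of animal 4, a pairing that the counts of M4 went against. Depth limits members with few counts, such as those under 3 counts in I.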
